A study of Homo sapiens with 24 samples.

Results

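A group of 9 long noncoding RNAs, each studied in prostate cancer or residing in the nucleus, was followed in RNA-seq read counts of LNCaP, a human prostate adenocarcinoma line that responds to androgen. The members were chosen by name as the rows of the count table with the symbols PCGEM1, PCA3, PART1, DRAIC, PCAT1, NEAT1, MALAT1, GAS5 and LINC00160, which are 9 of 60649 features, and each was found once. Study 1 compared cells with an empty vector (EV, labelled EmptyVect or EmptyVec) to cells that received an expression vector for WDR77-peptide 3 (labelled P3). Study 2 compared a non-targeting control (siCtrl, labelled Contr_siRNA) with an siRNA that lowers WDR77 (siWDR77, labelled WDR77_siRNA), the WD-repeat partner of the arginine methyltransferase PRMT5. All cells were transiently transfected, kept in androgen-deprived medium and then given 5 nM of the synthetic androgen R1881 or the ethanol vehicle for 48 h, with 3 libraries in each of the 8 groups. Libraries are named by group and by the sample number in the labels (S1 to S38).

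A long noncoding RNA is transcribed and often spliced like a messenger RNA but encodes no known protein. In prostate cells several such genes are androgen targets, since the androgen receptor binds hormone, enters the nucleus and raises or lowers transcription at DNA elements near its targets. NEAT1 is the scaffold of paraspeckles, MALAT1 collects in nuclear speckles rich in splicing factors, and GAS5 carries small nucleolar RNAs (snoRNAs) in its introns while its spliced exons are degraded during translation.

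Libraries held 16665915 to 24260446 counts, and the 9 members together took 0.106% to 0.262% of them. Levels are given as CPM, the counts in relation to a library total that was TMM-scaled within its study. WDR77, the target of the siRNA, stood at 44.9 CPM in siCtrl and 13.2 CPM in siWDR77 without hormone, and at 65.7 and 14.2 CPM with R1881. In study 1 it stood between 56.6 and 60.7 CPM in 3 groups and at 94.7 CPM in P3 with R1881. The luminal marker FOLH1 had at least 1106 CPM and HOXB13 at least 432 CPM in every library, and the stromal, endothelial and T cell markers COL1A2, CDH5 and CD3E were at 0 in all 24. Other markers were not absent, with the stromal COL1A1 at 6.68 to 24.4 CPM, the endothelial VWF at 2.75 to 18.5 CPM and the basal epithelial KRT14 at 0.226 to 9.78 CPM.

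The promoters of 3 members are shown because their genes gave the most different hormone responses: LINC00160 without a single count in vehicle, DRAIC lower with R1881 in every arm, and PCGEM1 called higher in the siRNA arms. The windows are RefSeq's (GRCh38.p14), 250 bases before to 50 bases after a gene's RefSeq start, written 5′ to 3′ on the gene's strand. The DRAIC window lies inside the gene's GENCODE 29 span (69463026 to 69843120) and not at the start of that span. The last 50 bases, transcribed, are in capitals, as is any match to the androgen receptor half-site AGAACA or its complement TGTTCT.
LINC00160 (chr21:34737133-34737432, minus strand): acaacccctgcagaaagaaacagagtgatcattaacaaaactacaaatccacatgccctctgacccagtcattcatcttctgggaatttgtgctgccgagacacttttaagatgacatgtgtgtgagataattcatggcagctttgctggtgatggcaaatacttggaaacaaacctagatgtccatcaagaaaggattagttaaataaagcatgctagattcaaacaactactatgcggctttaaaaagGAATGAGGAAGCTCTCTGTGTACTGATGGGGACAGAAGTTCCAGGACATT
DRAIC (chr15:69561470-69561769, plus strand): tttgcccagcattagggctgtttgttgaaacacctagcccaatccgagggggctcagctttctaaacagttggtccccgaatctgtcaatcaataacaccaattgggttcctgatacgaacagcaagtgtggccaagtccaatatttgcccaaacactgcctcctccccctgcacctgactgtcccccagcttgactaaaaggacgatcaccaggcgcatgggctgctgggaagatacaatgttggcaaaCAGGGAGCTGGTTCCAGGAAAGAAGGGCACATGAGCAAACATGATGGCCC
PCGEM1 (chr2:192749595-192749894, plus strand): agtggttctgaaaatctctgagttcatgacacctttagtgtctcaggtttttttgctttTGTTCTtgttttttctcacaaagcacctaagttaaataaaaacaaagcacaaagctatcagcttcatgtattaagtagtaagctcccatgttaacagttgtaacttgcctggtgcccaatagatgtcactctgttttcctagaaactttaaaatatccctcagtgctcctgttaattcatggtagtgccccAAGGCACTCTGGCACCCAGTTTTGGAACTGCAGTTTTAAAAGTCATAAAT
The half-site lies 191 bases before the PCGEM1 start and 41 bases before the RefSeq start in one of the MALAT1 windows. That MALAT1 window also lies inside the gene's GENCODE 29 span. Of the 9 windows found for 7 members, 2 held it on either strand, against 14.8% of all 35116 promoters. The full palindrome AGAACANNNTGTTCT was found in 1 of all promoters (0.00285%) and the forkhead motif GTAAACA in 3.42% of them, and neither in a member's window. NEAT1 and PCAT1 were not matched to a window.

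Transcript ends are shown because the libraries were made from poly(A) RNA, which decides how much of NEAT1, MALAT1 and GAS5 can be counted. The sequences are from GENCODE 29. Capitals mark a match to the polyadenylation signal AATAAA, the A-rich tail of the long NEAT1 transcript and, in GAS5, the run of pyrimidines at its start.
NEAT1-208, last 60 of 2994 bases: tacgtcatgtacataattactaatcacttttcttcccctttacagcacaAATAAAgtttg
NEAT1-202, last 60 of 22743 bases: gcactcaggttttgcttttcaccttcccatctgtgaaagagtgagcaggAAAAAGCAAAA
MALAT1-202, last 60 of 8708 bases: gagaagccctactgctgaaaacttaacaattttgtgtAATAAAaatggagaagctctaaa
GAS5-219, first 50 of 542 bases: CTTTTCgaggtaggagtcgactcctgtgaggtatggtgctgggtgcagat
The short NEAT1 transcript carries the signal, and the long one, which builds paraspeckles, ends in a genomically encoded A-rich stretch. The count table has 1 value for both, so a change in NEAT1 cannot be assigned to either. The MALAT1 end is that of 1 annotated transcript, and whether the counted MALAT1 RNA ends there was not tested. A start with C and at least 4 further pyrimidines, typical of genes tied to translation, was found in 6 of 29 GAS5 transcripts. Genes were counted where any of their transcripts had it. These were 16 of 25 snoRNA host genes with annotated starts, GAS5 among them, and 6.58% of all 58721 genes. A gene with more annotated transcripts is more readily counted, and the host genes and all genes were not matched for this.

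Per kilobase of annotated exon, MALAT1 was the most abundant member with a mean of 108 CPM per kb over 24 libraries (all libraries scaled together), ahead of GAS5 with 32.9 and NEAT1 with 25.6 CPM per kb. GAS5 and NEAT1 overlapped, with libraries from 24.5 to 44.2 and from 13.2 to 40.7 CPM per kb. The 6 prostate transcripts lay far below, at 1.21 for PART1, 1.11 for PCGEM1, 0.879 for DRAIC, 0.826 for LINC00160, 0.667 for PCAT1 and 0.445 CPM per kb for PCA3, and their library ranges overlapped. The per-kb level depends on the annotated exon length, which runs from 693 bases in LINC00160 to 22767 bases in NEAT1. In bulk samples, fewer cells with a transcript and less RNA per cell cannot be told apart.

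**Figure D1:**
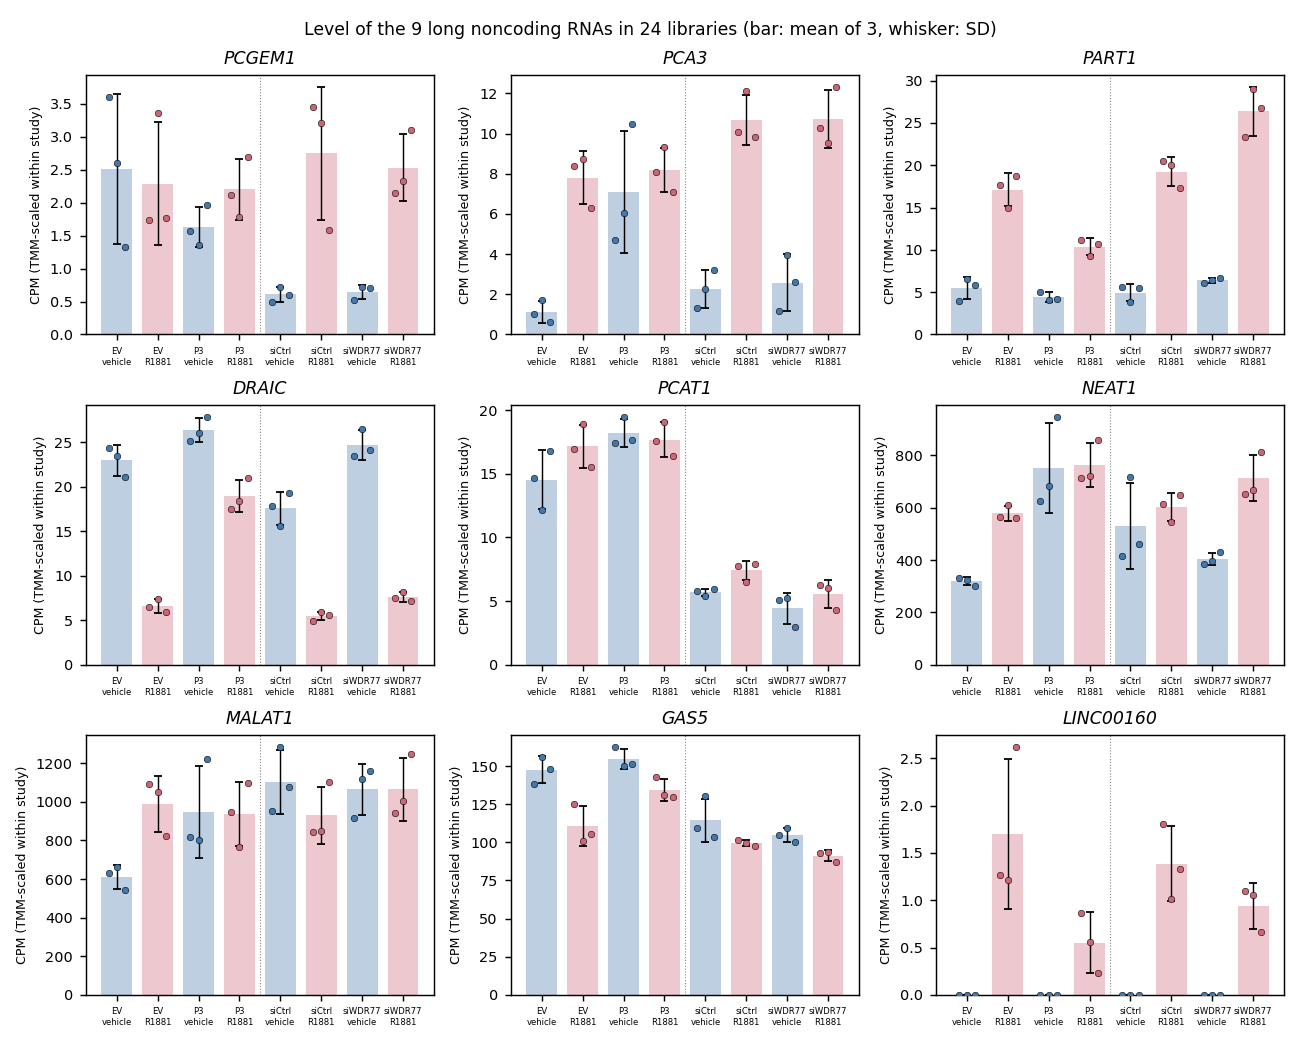
CPM of each long noncoding RNA (vertical axis, TMM-scaled within study, a scale of its own per panel) in the 8 groups, with 3 libraries as points, the mean as a bar and the SD as a whisker; blue is vehicle, red is R1881, and the dotted line parts study 1 from study 2. LINC00160 is at 0 in all vehicle libraries, PART1 is higher and DRAIC lower with R1881 in each arm, and PCA3 in P3 vehicle stands at the level of the R1881 groups.

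The first question was what R1881 changed in each arm. A feature was called where its p, adjusted by Benjamini-Hochberg, was under 0.05 in edgeR's quasi-likelihood test over all features tested in the study, and all p-values below are of that kind. In EV cells 7 of the 9 members were called, 5 higher and 2 lower, where 51.4% of 17772 features were called. In P3 cells 4 were called, 2 in each direction, against 21% of features. In study 2 the siCtrl arm had 6 calls, 4 higher and 2 lower, against 51.1% of 17893 features, and the siWDR77 arm had 7, 5 higher and 2 lower, against 53.2%. Only PART1, DRAIC, GAS5 and LINC00160 were called in all 4 arms, each in 1 direction throughout. With so many features called, the number of members called is not a result about the members, and their values follow.

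LINC00160, an intergenic RNA on chromosome 21 (34723807 to 34737181, minus strand, GRCh38, 6 exons), was the clearest on-off case. Its count was 0 in all 12 vehicle libraries. With R1881 it had 24, 21 and 40 counts in EV, 18, 10 and 4 in P3, 33, 19 and 21 in siCtrl and 23, 20 and 13 in siWDR77, so that every hormone library was above every vehicle library. Against a floor of 3 counts over the vehicle group, the level was at least 33.9-fold higher in EV (adjusted p = 3.41e-08), 12.7-fold in P3 (7.5e-05), 31-fold in siCtrl (7.03e-07) and 21.2-fold in siWDR77 (3.39e-06). No annotated gene overlaps it.

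PART1, prostate androgen-regulated transcript 1 (chromosome 5, 60487713 to 60547657, plus strand, 6 merged exons), rose with hormone in every arm without overlap of the groups. In EV it went from 3.99, 6.52 and 5.85 CPM to 17.6, 15 and 18.7 CPM, and in P3 from 5.07, 4.06 and 4.18 CPM to 11.2, 9.22 and 10.7 CPM. In siCtrl the libraries had 5.56, 3.84 and 5.47 CPM in vehicle and 20.5, 20 and 17.3 CPM with R1881, and in siWDR77 6.1, 6.43 and 6.68 against 23.3, 29 and 26.7 CPM. The lowest hormone libraries were those of P3. On the log2 scale the rise was 1.63 ± 0.15 (SE) in EV (adjusted p = 1.58e-12), 1.23 ± 0.16 in P3 (3.38e-08), 1.96 ± 0.14 in siCtrl (9.39e-12) and 2.04 ± 0.13 in siWDR77 (1.67e-12).

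DRAIC, named for its fall in androgen-independent cells and known as an inhibitor of cell migration (chromosome 15, 69463026 to 69843120, plus strand, 39 merged exons), moved the opposite way. Its libraries had 24.4, 23.5 and 21.1 CPM in EV vehicle and 6.49, 7.42 and 5.89 CPM in EV with R1881, a fall to a level 3.47-fold lower (log2 -1.80 ± 0.11, adjusted p = 2.58e-17). In siCtrl 17.8, 15.6 and 19.3 CPM became 4.92, 5.88 and 5.59 CPM, and in siWDR77 23.4, 26.6 and 24.1 CPM became 7.45, 8.21 and 7.13 CPM, with log2 changes of -1.69 ± 0.12 and -1.70 ± 0.12 (adjusted p = 2.55e-11 and 6.2e-12). The log2 changes of these 3 arms lay between -1.69 and -1.80. In P3 cells 25.2, 26.1 and 27.8 CPM became 17.5, 18.4 and 20.9 CPM, a 1.39-fold lower level (log2 -0.48 ± 0.098, adjusted p = 0.000206).

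PCA3, whose RNA in urine serves as a prostate cancer marker (chromosome 9, 76691980 to 76863307, plus strand, 19 merged exons), rose in 3 arms. In EV it had 1.04, 1.71 and 0.638 CPM without and 8.39, 8.75 and 6.28 CPM with R1881, a 6.67-fold rise (log2 2.74 ± 0.34, adjusted p = 3.71e-06). In siCtrl 1.34, 2.26 and 3.22 CPM became 10.1, 12.1 and 9.85 CPM (log2 2.21 ± 0.37, adjusted p = 4e-04), and in siWDR77 1.16, 3.97 and 2.61 CPM became 10.3, 9.54 and 12.3 CPM (log2 2.07 ± 0.36, adjusted p = 0.000534). None of these groups overlapped. In P3 the vehicle libraries already stood at 4.72, 6.07 and 10.5 CPM and overlapped the hormone libraries at 8.11, 9.33 and 7.11 CPM, and the difference of 0.20 ± 0.26 was not called (adjusted p = 0.684). Without P3_vehicle S5, the library at 10.5 CPM, it was 0.60 and called (adjusted p = 0.0337).

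PCGEM1, a prostate-enriched RNA (chromosome 2, 192749845 to 192776899, plus strand, 4 merged exons), had 10 to 66 counts per library. In siCtrl it rose from 0.496, 0.723 and 0.604 CPM to 3.45, 3.21 and 1.59 CPM (log2 2.17 ± 0.34, adjusted p = 6.26e-06), and in siWDR77 from 0.524, 0.714 and 0.706 CPM to 2.15, 2.33 and 3.11 CPM (log2 1.97 ± 0.33, adjusted p = 2.01e-05). In EV the vehicle libraries had 3.6, 2.61 and 1.33 CPM and the hormone libraries 1.74, 3.36 and 1.77 CPM. These overlapped, and neither the EV difference of -0.13 ± 0.31 (adjusted p = 0.745, 95% interval -0.75 to 0.49) nor that in P3 of 0.43 ± 0.32 (adjusted p = 0.395) was called. The P3 libraries had 1.57, 1.35 and 1.96 CPM without and 2.12, 1.79 and 2.7 CPM with R1881.

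PCAT1, a prostate cancer associated transcript of the gene desert near MYC (chromosome 8, 126556323 to 127419050, plus strand, 49 merged exons), was called for R1881 in no arm. Its libraries ran from 12.1 to 16.8 CPM in EV vehicle and from 15.6 to 19 CPM in EV with R1881, and its log2 difference was 0.25 ± 0.11 (adjusted p = 0.0628). Without EV_vehicle S29 or EV_R1881 S30 the difference was 0.36 and 0.31 and was called (adjusted p = 0.0136 and 0.0337). The differences in P3, siCtrl and siWDR77 were -0.04 ± 0.11, 0.38 ± 0.19 and 0.32 ± 0.20 (adjusted p = 0.855, 0.0985 and 0.183).

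**Figure D2:**
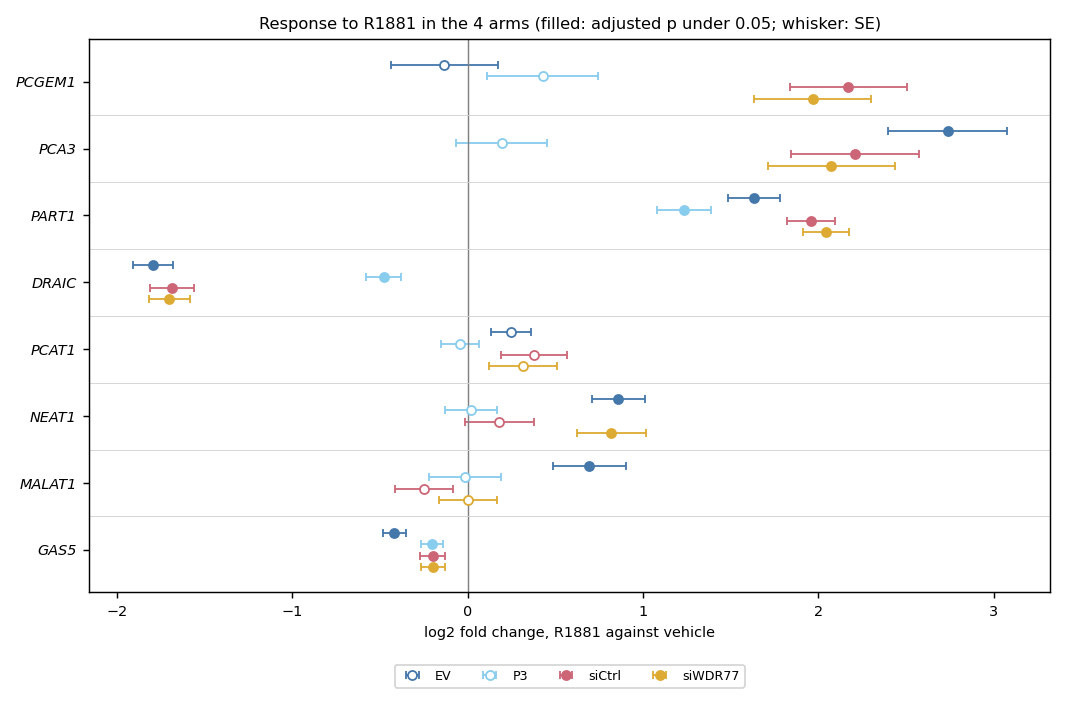
Log2 fold change of R1881 against vehicle (horizontal axis) with its SE for 8 members (vertical axis) in the EV, P3, siCtrl and siWDR77 arms, each from 3 against 3 libraries; filled points have an adjusted p under 0.05. LINC00160 is left out because its vehicle groups had no count; PART1 lies right and DRAIC left of 0 in every arm, and PCGEM1 is called in the siRNA arms.

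The nuclear RNAs responded unevenly to R1881. NEAT1 (chromosome 11, 65422774 to 65445540, plus strand, 1 merged exon) had 332, 324 and 301 CPM in EV vehicle and 564, 611 and 560 CPM with R1881, a log2 rise of 0.86 ± 0.15 without overlap (adjusted p = 0.00122). In siWDR77 383, 397 and 431 CPM became 654, 670 and 813 CPM (log2 0.82 ± 0.20, adjusted p = 0.00721). In siCtrl the vehicle libraries S21, S35 and S7 had 414, 718 and 460 CPM, of which S35 stood above all hormone libraries at 613, 544 and 648 CPM, and the difference of 0.18 ± 0.20 was not called (adjusted p = 0.484). Without S35, which also had the highest mitochondrial share of all libraries (8.4% of counts, the lowest being 5.15%), it was 0.45 and called (adjusted p = 0.00559).

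In P3 cells NEAT1 was high in both conditions, with 627, 682 and 947 CPM in vehicle and 712, 720 and 860 CPM with R1881, and the difference was 0.02 ± 0.15 (adjusted p = 0.948). Without P3_vehicle S5, the highest library, it was 0.22 and called (adjusted p = 0.0322). That library also had the highest PCA3 and MALAT1 of its group and the most features with a count (29094, the lowest library having 24478). The whole P3 arm was high in this, with 26538 to 29094 features per library against 24531 to 26173 in EV. The part of such library-wide differences in the NEAT1 values was not tested.

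MALAT1, its neighbour on chromosome 11 (65497688 to 65506516, plus strand, 1 merged exon), was called in EV alone. There 631, 661 and 542 CPM in vehicle became 1094, 1050 and 823 CPM with R1881, without overlap (log2 0.69 ± 0.21, adjusted p = 0.021). The call was lost, with adjusted p from 0.0512 to 0.0737, without EV_vehicle S1 or S29 or EV_R1881 S16 or S2, and with unscaled library totals (log2 0.53, adjusted p = 0.0695). In P3, siCtrl and siWDR77 the groups overlapped, with differences of -0.02 ± 0.20, -0.25 ± 0.17 and 0.00 ± 0.17 (adjusted p = 0.973, 0.253 and 0.995), although with unscaled totals the siCtrl value was -0.50 and called (adjusted p = 0.0311). In 6 of the 8 groups the library with the highest NEAT1 was also that with the highest MALAT1.

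**Figure D3:**
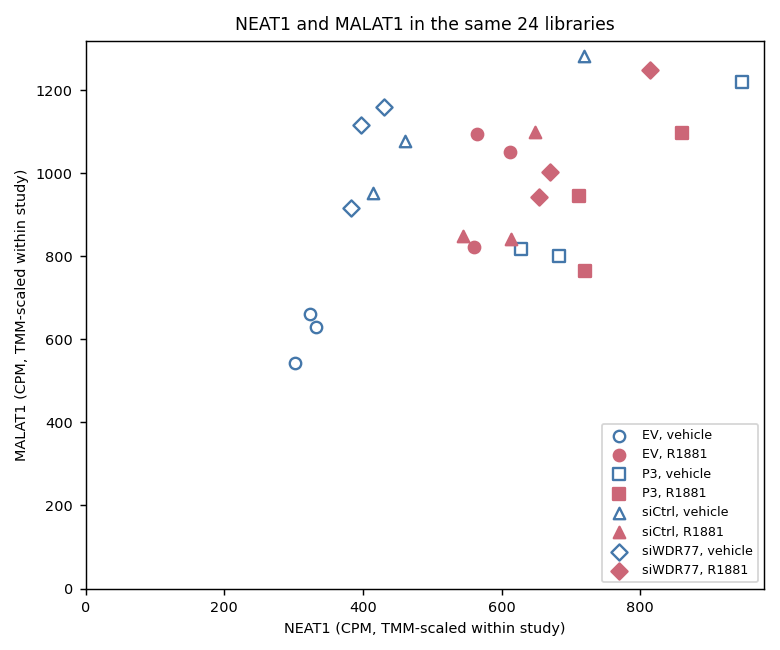
MALAT1 against NEAT1 (CPM, TMM-scaled within study) in the 24 libraries; shape gives the arm, open blue points are vehicle and filled red points R1881. The 3 EV vehicle libraries lie lowest in both, at 301 to 332 CPM of NEAT1 and 542 to 661 CPM of MALAT1, and P3_vehicle S5 has the highest NEAT1.

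GAS5, a snoRNA host gene tied to growth arrest whose RNA can bind the glucocorticoid receptor (chromosome 1, 173863900 to 173868882, minus strand, 5 merged exons), fell with R1881 in all arms, by little. Its libraries had 138, 156 and 148 CPM in EV vehicle and 125, 101 and 106 CPM with R1881 (log2 -0.42 ± 0.065, adjusted p = 1.28e-06). In P3, siCtrl and siWDR77 the falls were smaller, at -0.20 ± 0.064, -0.20 ± 0.070 and -0.20 ± 0.070 (adjusted p = 0.0201, 0.0206 and 0.0208), with P3 vehicle at 150 to 162 CPM and P3 with R1881 at 130 to 143 CPM. The groups of each arm did not overlap. These smaller calls lie near the threshold. They were lost in P3 without P3_vehicle S19 or P3_R1881 S34 or S6 (adjusted p 0.112, 0.0528 and 0.1), in siCtrl without siCtrl_vehicle S35 or siCtrl_R1881 S36 or S8 (0.185, 0.0596 and 0.0731), and in siWDR77 without siWDR77_vehicle S37 or siWDR77_R1881 S38 (0.094 and 0.0886). Without siCtrl_vehicle S35 the siCtrl value was -0.10, and without each of the other libraries just named the value stayed between -0.16 and -0.20. With unscaled totals the falls in siCtrl and siWDR77 were larger, at -0.46 and -0.49, as the median of all features then moved by -0.26 and -0.30.

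Other snoRNA host genes were compared with GAS5, 25 of which were tested in each study. In EV 19 of them fell with R1881 and 1 rose, where 26.4% of all features were lower and 24.9% higher, and their median log2 change was -0.51 beside -0.04 for all features. SNHG3 fell by 1.24 ± 0.074, DANCR by 0.74 ± 0.063, SNHG1 by 0.74 ± 0.067 and SNHG29 by 0.55 ± 0.051 on the log2 scale (adjusted p = 4.23e-18, 1.47e-12, 1.58e-12 and 3.06e-12). In P3 7 fell and none rose (median -0.13, all features -0.02), where 7.96% of features were lower. In siCtrl 7 fell and 2 rose (median -0.02, all features -0.04) and in siWDR77 11 fell and 2 rose (median -0.30, all features -0.02), where 25.4% and 25.5% of features were lower. SNHG17 was among those that rose in siWDR77, by 0.49 ± 0.10 (adjusted p = 0.000201). The decay factors of nonsense-mediated decay, the route that removes spliced GAS5, had 4 rises and 8 falls among 17 genes in EV (median -0.19), 2 rises and 1 fall in P3 (median -0.04), and 4 rises and 2 falls in siCtrl and in siWDR77 (medians 0.068 and 0.064). The 6 of 17 called in each siRNA arm are fewer than the 51.1% and 53.2% of all features called there, so these counts are no result about the decay factors. Of all features 24.9% rose and 26.4% fell in EV, and 13% rose and 7.96% fell in P3. SMG5, which recruits decay enzymes, rose by 0.42 ± 0.053 in EV and 0.26 ± 0.052 in P3 (adjusted p = 4.85e-09 and 0.000158). It rose by 0.81 ± 0.053 in siCtrl and 0.86 ± 0.053 in siWDR77 (adjusted p = 2.51e-12 and 7.59e-13). UPF2 was lower in EV, P3 and siWDR77, with log2 changes of -0.47 ± 0.067, -0.21 ± 0.067 and -0.45 ± 0.11 (adjusted p = 1.48e-07, 0.0174 and 0.00162). CASC3 was lower in EV and siCtrl, with -0.31 ± 0.054 and -0.26 ± 0.060 (adjusted p = 6.14e-06 and 0.000741).

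**Figure D4:**
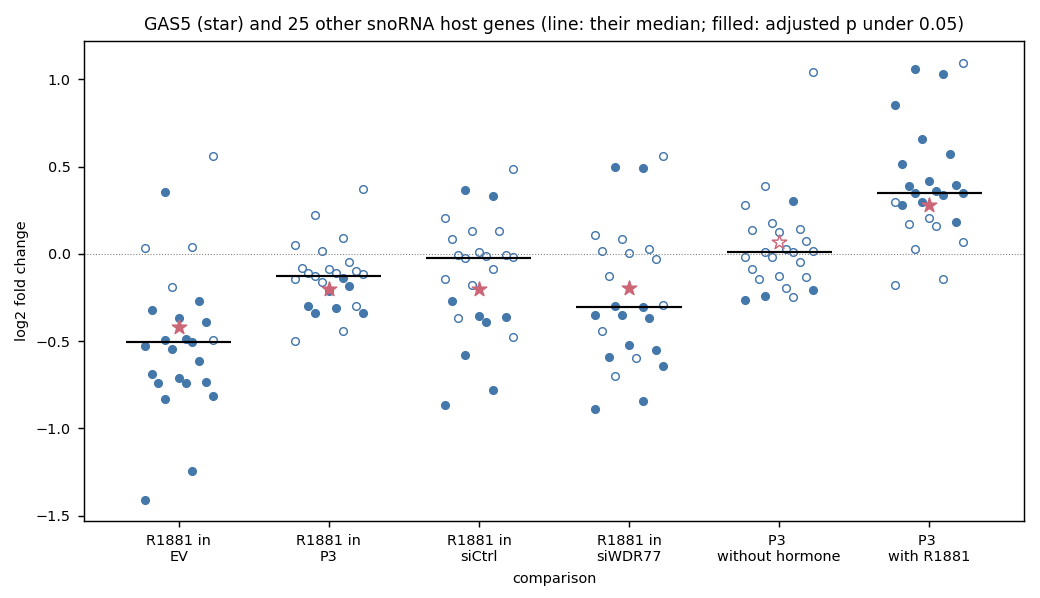
Log2 fold change (vertical axis) of GAS5 (star) and 25 other snoRNA host genes (circles) in 6 comparisons, filled at an adjusted p under 0.05, with the median of the other genes as a line. In EV with R1881 19 circles are called lower, in P3 without hormone the median is near 0, and in P3 with R1881 16 circles and GAS5 are called higher.

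The second question was what WDR77-peptide 3 changed. Without hormone, 3 of the 9 members were called, all higher in P3 than in EV, against 15.8% of features. PCA3 was 6.08-fold higher, at 7.09 ± 3.02 against 1.13 ± 0.542 CPM (mean ± SD, n = 3; log2 2.60 ± 0.33, adjusted p = 9.6e-05), and NEAT1 was 2.36-fold higher, at 752 ± 171 against 319 ± 15.9 CPM (log2 1.24 ± 0.15, adjusted p = 0.00108). For both, every P3 library was above every EV library. The P3 libraries also had more features with a count than the EV libraries, and the part of that in these differences was not tested. PCAT1 was higher by 0.33 ± 0.11 (adjusted p = 0.035), at 17.4 to 19.5 against 12.1 to 16.8 CPM. The PCAT1 call was lost without EV_vehicle S1 or S15 or P3_vehicle S33 or S5 (adjusted p 0.0827, 0.28, 0.113 and 0.0671; 0.20 without S15).

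MALAT1 stood at 818, 801 and 1219.9 CPM in P3 vehicle, above the EV vehicle libraries without overlap, yet the difference of 0.63 ± 0.21 was not called (adjusted p = 0.0775). It was called with DESeq2 (0.62, adjusted p = 0.0264) and in 1 fit of all 24 libraries (0.61, adjusted p = 0.0425), where PCAT1 was not (adjusted p = 0.0738 and 0.129). PCGEM1 had 1.63 ± 0.31 CPM in P3 and 2.51 ± 1.14 CPM in EV, and its difference of -0.62 ± 0.31 was not called (adjusted p = 0.172); without EV_vehicle S29 it was -0.92 and called (adjusted p = 0.0436). DRAIC at 0.20 ± 0.095, PART1 at -0.32 ± 0.16 and GAS5 at 0.07 ± 0.064 were not called either (adjusted p = 0.152, 0.189 and 0.524). LINC00160 had no count in either group.

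With R1881, 4 of the 9 members differed between P3 and EV, 2 higher and 2 lower, against 37% of features. DRAIC was 2.86-fold higher in P3, at 18.9 ± 1.77 against 6.6 ± 0.772 CPM (log2 1.51 ± 0.12, adjusted p = 4.32e-14). GAS5 was higher by 0.28 ± 0.065 (adjusted p = 0.000763; 0.44 with unscaled totals). PART1 was 1.64-fold lower, at 10.4 ± 1.03 against 17.1 ± 1.93 CPM (log2 -0.72 ± 0.14, adjusted p = 6.03e-05). LINC00160 was lower by a log2 change of -1.57 ± 0.51 (adjusted p = 0.0146), but that call was lost without EV_R1881 S30 (-1.14, adjusted p = 0.17) or P3_R1881 S6 (-1.22, adjusted p = 0.0976).

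PCA3, at 8.18 ± 1.11 CPM in P3 and 7.81 ± 1.33 CPM in EV, overlapped between the arms with hormone (log2 0.06 ± 0.26, adjusted p = 0.883, 95% interval -0.50 to 0.62). NEAT1 was 0.40 ± 0.15 higher in P3 and just missed the threshold (adjusted p = 0.0675). Every P3 library of NEAT1 was above every EV library, and without P3_vehicle S19 or S5, which enter only through the shared estimate of spread, it was called (0.40 in both, adjusted p = 0.0433 and 3.4e-05). It was also called in a fit of the 6 libraries compared (0.41, adjusted p = 7.38e-06) and with unscaled library totals (0.56, adjusted p = 0.0235). PCGEM1, PCAT1 and MALAT1 overlapped between the arms.

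The response to R1881 itself differed between P3 and EV for 3 of the 9 members in a test of the interaction, 1 in the positive and 2 in the negative direction, against 22.6% of features. For PCA3 the response was smaller in P3, a difference of -2.54 ± 0.43 on the log2 scale (adjusted p = 0.000373). For DRAIC the fall was smaller, a difference of 1.32 ± 0.15 (adjusted p = 4.06e-09). For NEAT1 the difference was -0.84 ± 0.21 (adjusted p = 0.0216), a call lost without EV_vehicle S29 or P3_R1881 S20 or S34 (adjusted p 0.0552, 0.0522 and 0.052). PART1 at -0.40 ± 0.22, MALAT1 at -0.71 ± 0.29 and GAS5 at 0.21 ± 0.091 did not pass (adjusted p = 0.196, 0.128 and 0.089), and GAS5 did without EV_R1881 S16 (0.32, adjusted p = 0.00689). The interaction and its component comparisons share libraries.

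Among the other snoRNA host genes, 16 of 25 were higher and none lower in P3 than in EV with R1881, where 18.1% of all features were higher and 18.9% lower, with a median of 0.35 beside 0.03 for all features. SNHG3 was higher by 1.03 ± 0.074 and SNHG1 by 0.57 ± 0.068 (adjusted p = 1.16e-14 and 4.18e-09). Without hormone 1 was higher and 3 lower (median 0.01). Of 21 paraspeckle protein genes, 9 were higher and 1 lower in P3 with R1881 (median 0.12). In vehicle, where NEAT1 was higher, none was higher and 3 were lower (median -0.02), which is near the 15.8% of all features called. SFPQ, a core RNA-binding protein of paraspeckles, was higher by 0.39 ± 0.048 and HNRNPA1 by 0.60 ± 0.050 with R1881 (adjusted p = 1.08e-08 and 4.74e-13), and NONO was lower by 0.19 ± 0.046 in vehicle (log2 -0.19, adjusted p = 0.00314).

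**Figure D5:**
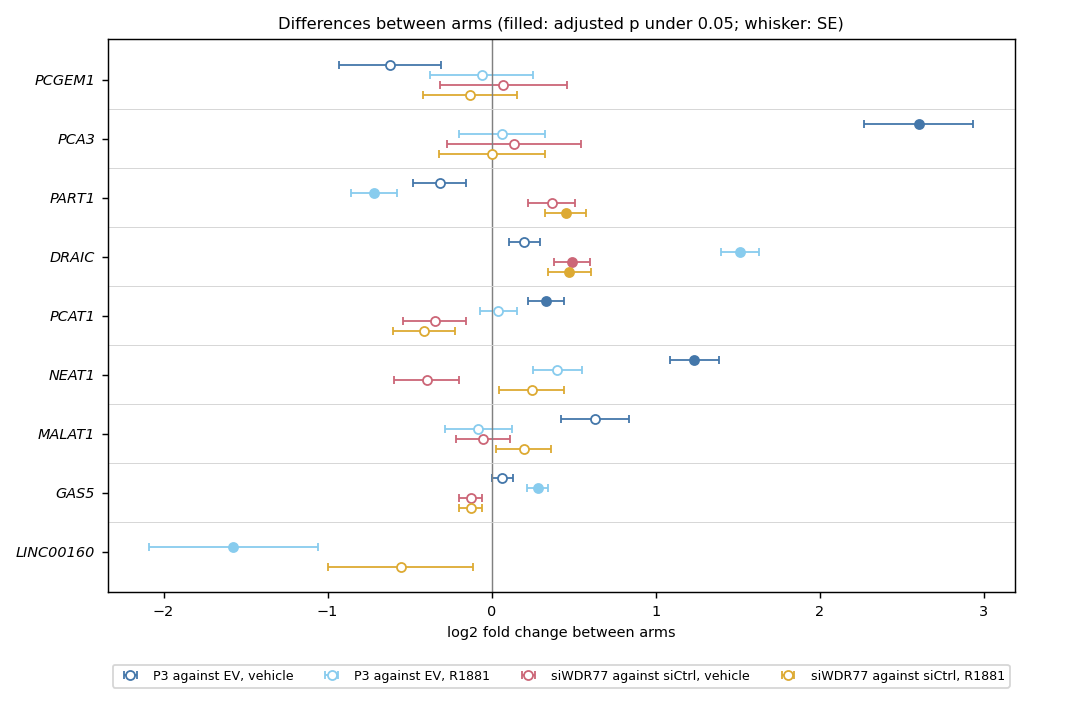
Log2 fold change between arms (horizontal axis) with its SE for the 9 members (vertical axis), P3 against EV and siWDR77 against siCtrl, each without and with R1881 (3 against 3 libraries); filled points have an adjusted p under 0.05. PCA3 and NEAT1 are right of 0 in P3 without hormone, DRAIC is right of 0 in P3 with R1881 and in both siWDR77 comparisons, and LINC00160 has no vehicle point since both groups had no count.

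The third question was what lowering WDR77 changed. Without hormone, 1 of the 9 members was called, against 1.53% of features. This was DRAIC, with 23.4, 26.6 and 24.1 CPM in siWDR77 against 17.8, 15.6 and 19.3 CPM in siCtrl, higher by 0.49 ± 0.11 (adjusted p = 0.0185) without overlap. The call was lost without siCtrl_vehicle S21 or siWDR77_vehicle S37 or S9 (adjusted p 0.0645, 0.167 and 0.0768), with the value then between 0.43 and 0.51. PART1 at 0.37 ± 0.15 also had no overlap but was not called (adjusted p = 0.255). The other members had adjusted p-values from 0.462 to 0.973, except LINC00160, which had no count.

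With R1881, 2 of the 9 were called, both higher in siWDR77, against 7.22% of features. PART1 had 26.4 ± 2.89 CPM in siWDR77 and 19.2 ± 1.71 CPM in siCtrl (log2 0.45 ± 0.12, adjusted p = 0.0249), and DRAIC 7.6 ± 0.559 and 5.46 ± 0.489 CPM (log2 0.47 ± 0.13, adjusted p = 0.0292). Neither pair of groups overlapped. The PART1 call was lost without siCtrl_R1881 S22, S36 or S8 or siWDR77_R1881 S24 or S38 (adjusted p 0.0613, 0.0658, 0.136, 0.141 and 0.0806), and that of DRAIC without siCtrl_R1881 S22, S36 or S8 or siWDR77_R1881 S10 or S24 (0.154, 0.0501, 0.0702, 0.0537 and 0.119). PCAT1 was at 5.56 ± 1.07 against 7.41 ± 0.778 CPM without overlap, a difference of -0.41 ± 0.19 that was not called (adjusted p = 0.213).

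The response to R1881 did not pass the test of a difference between siWDR77 and siCtrl for any of the 9 members, nor for any of the 17893 features (0%), although 1484 features had an unadjusted p under 0.05. NEAT1 came closest among the members, with a difference of 0.64 ± 0.28 (unadjusted p = 0.0495, adjusted p = 0.602). For DRAIC, PART1 and PCA3 the differences were -0.01 (95% interval -0.38 to 0.35), 0.09 (-0.31 to 0.48) and -0.13 (-1.28 to 1.01). The PCA3 interval leaves room for responses that differ by 2-fold in either direction.

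Of the other listed genes, few moved with the siRNA, where 1.53% of all features were called without and 7.22% with R1881. A list drawn up as nuclear held 12 other tested long noncoding RNAs, whose place in the cell was not measured here. Of these, OIP5-AS1 was higher in siWDR77 by 0.25 ± 0.052 without and 0.36 ± 0.053 with R1881 (adjusted p = 0.011 and 0.000118), and no other was called. Among 18 other prostate long noncoding RNAs none was called without hormone, and PVT1, which neighbours MYC, was lower with R1881 (log2 -0.49 ± 0.091, adjusted p = 0.00156). Of 25 snoRNA host genes, 1 was lower without and 4 with hormone, and none was higher, where 0.844% and 3.31% of all features were lower. SNHG4 was lower in both, with log2 changes of -0.37 ± 0.066 and -0.66 ± 0.067 (adjusted p = 0.00286 and 1.39e-06).

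The EV and siCtrl arms are both controls, and they were set against each other in 1 fit of all 24 libraries, a comparison chosen after the data were seen. The study and the transfected agent cannot be told apart in it. Without hormone 6 of the 9 members differed, 4 higher and 2 lower in EV, against 34.5% of 18999 features. PCGEM1 stood at 2.5 ± 1.13 CPM in EV and 0.618 ± 0.115 CPM in siCtrl (4.01-fold, adjusted p = 2.23e-05) and PCAT1 at 14.5 ± 2.36 and 5.78 ± 0.282 CPM (log2 1.32 ± 0.15, adjusted p = 5.04e-09). NEAT1 and MALAT1 were lower in EV, by log2 changes of -0.76 ± 0.18 and -0.88 ± 0.19 (adjusted p = 0.00261 and 0.00146). GAS5 was higher by 0.34 ± 0.071 and DRAIC by 0.36 ± 0.10 (adjusted p = 0.000248 and 0.00574), the latter lost without siCtrl_vehicle S35 (0.23, adjusted p = 0.11).

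With R1881 only PCAT1 of the 9 members still differed between the control arms (log2 1.17 ± 0.15, adjusted p = 1.23e-07), against 19.2% of features. The response to R1881 differed for 2 members, against 16.8% of features. That of PCGEM1 was smaller in EV (difference -2.32 ± 0.48, adjusted p = 0.000476) and that of MALAT1 larger (0.92 ± 0.27, adjusted p = 0.0239). The MALAT1 call was lost without EV_vehicle S29, EV_R1881 S16 or S2, siCtrl_vehicle S35 or siCtrl_R1881 S22 or S36 (adjusted p from 0.0563 to 0.0627). NEAT1 and GAS5 were not called (adjusted p = 0.0816 and 0.111), but NEAT1 was without siCtrl_vehicle S21 (0.81, adjusted p = 0.0268), and GAS5 was without EV_R1881 S16 or siCtrl_vehicle S35 (-0.34 and -0.29, adjusted p = 0.019 and 0.0364).

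Several members lie across other genes, and whether the counting used strand is not given in the sources used here. Reads from opposite strands may thus not be separated. In GENCODE 29, 32 genes overlap a member's span, 13 of which had no count in any library and 10 of which were tested. PCA3 lies in antisense within PRUNE2, a gene at 565 to 859 CPM by group, far above PCA3, and 1060 of its exon bases (7.48%) are shared with PRUNE2 exons. PRUNE2 rose with R1881 by 0.34 ± 0.048 in EV and 0.23 ± 0.076 in siWDR77, and had -0.03 ± 0.076 in siCtrl (adjusted p = 8.01e-08, 0.0161 and 0.788), where PCA3 rose by 2.21. In P3 without hormone PRUNE2 was higher by 0.22 ± 0.048 (adjusted p = 0.00156), beside 2.60 for PCA3. The part of PRUNE2 reads in the PCA3 counts was not tested. AL359314.1, on the strand of PCA3 and within its span without shared exon bases, had 0 to 14 counts per library. It was higher by 2.64 ± 1.02 with R1881 in EV and by 3.02 ± 0.95 in P3 without hormone (adjusted p = 0.0289 and 0.0257). Its response to R1881 differed by -3.65 ± 1.27 between P3 and EV (adjusted p = 0.0324). For R1881 in P3 and for P3 with R1881 it was not called (adjusted p = 0.394 and 0.583).

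PART1 shares 227 exon bases with PDE4D, a phosphodiesterase gene on the opposite strand. PDE4D, at 2.7 to 6.85 CPM by group, fell with R1881 in all 4 arms, by log2 changes of -1.09, -0.47, -0.80 and -0.83 in EV, P3, siCtrl and siWDR77 (adjusted p = 2.99e-06, 0.0418, 0.00253 and 0.00158), against the direction of PART1. PCAT1 shares 1163 exon bases with FAM84B on the opposite strand, at 71.2 to 105 CPM by group, and 848 with POU5F1B on its own strand. FAM84B rose with R1881 by 0.23 ± 0.058 in EV and 0.52 ± 0.068 in siCtrl (adjusted p = 0.000927 and 5.62e-07), and in P3 without hormone, where PCAT1 was called higher, it had -0.04 ± 0.058 (adjusted p = 0.668). PRNCR1, within the PCAT1 span on its strand at 0 to 21 counts per library, was higher there by 1.94 ± 0.68 (adjusted p = 0.0455). CASC19, CASC8 and POU5F1B in that span were not called there (adjusted p = 0.164, 0.691 and 0.325). With R1881, PRNCR1 and CASC19 were higher in P3 by 1.69 ± 0.68 and 1.81 ± 0.54 (adjusted p = 0.0472 and 0.00664), and PCAT1 was not called. ZBTB37, which starts head to head with GAS5 without sharing exon bases, rose with R1881 by 0.90 ± 0.075 in EV (adjusted p = 2.41e-12) while GAS5 fell. Of the 12 features that lie wholly inside member exons, 11 on the same and 1 on the opposite strand, all had no count. Over the genome this held for 97.6% of 42 features nested on the same strand and 97% of 168 on the opposite strand, in host genes with at least 24000 counts.

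Other long noncoding RNAs, of the prostate and the nuclear list, moved in both directions with R1881. In EV 9 of 19 tested prostate RNAs rose and 3 fell (median 0.39, all features -0.04), where 24.9% of all features rose and 26.4% fell. In siCtrl 8 of 18 rose and 5 fell (median 0.063), where 25.7% of all features rose and 25.4% fell. CTBP1-AS, an antisense RNA of the corepressor gene CTBP1, rose by 1.87 ± 0.086 in EV and 1.84 ± 0.094 in siCtrl (adjusted p = 6.59e-22 and 6.21e-13). CRNDE fell by 1.76 ± 0.088 in EV and 1.78 ± 0.094 in siCtrl (adjusted p = 2.27e-20 and 6.03e-14). Of 11 tested RNAs in the nuclear list, 4 rose in EV and none fell, led by LINC-PINT (2.21 ± 0.28, adjusted p = 1.13e-08). Of all features 51.4% were called in EV and 24.9% were higher. In P3 1 rose and 1 fell, and of 12 tested in study 2 there were 2 of each in siCtrl and 4 rises and 2 falls in siWDR77. Of all features 21%, 51.1% and 53.2% were called in these 3 arms. The counts in these arms and in EV are thus no result about the RNAs of the nuclear list. In siCtrl TERC, the telomerase RNA, fell by 3.25 ± 0.86 and FIRRE by 1.21 ± 0.38 (adjusted p = 0.00293 and 0.0101). In siWDR77 the fall of TERC was 6.24 ± 1.34 (adjusted p = 0.00041). The SEs of TERC are wide, and how much of this RNA poly(A) libraries capture was not tested. In P3 without hormone 4 of 11 were higher, as NEAT1 was, and none lower, where 7.93% of all features were higher, with KCNQ1OT1 at 1.55 ± 0.13 and FTX at 0.83 ± 0.19 (adjusted p = 1.29e-10 and 0.0118).

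Of the structural partners of the nuclear RNAs, 15 of 21 paraspeckle protein genes fell with R1881 in EV and 2 rose (median -0.31), where NEAT1 itself rose. Of 20 nuclear speckle genes 12 fell and 2 rose there (median -0.25), where MALAT1 rose, and of all features 26.4% fell. The paraspeckle counts were 6 falls and no rise in P3 (median -0.13), 9 falls and 5 rises in siCtrl (median -0.11) and 11 falls and 5 rises in siWDR77 (median -0.18), and of these 3 arms NEAT1 was called, as higher, in siWDR77 alone. The speckle counts were 6 falls and 1 rise in P3, 8 falls and 3 rises in siCtrl and 8 falls and 4 rises in siWDR77 (medians -0.12, -0.12 and -0.05). In these 3 arms 7.96%, 25.4% and 25.5% of all features fell, and 13%, 25.7% and 27.7% rose. In EV HNRNPA1 fell by 0.99 ± 0.050 and RBMX by 0.83 ± 0.055 (adjusted p = 1.61e-20 and 1.14e-16), and the splicing factors SRSF3 and SRSF7 fell by 0.69 ± 0.050 and 0.76 ± 0.063 (adjusted p = 2.32e-15 and 1.85e-13). CPSF7 and TAF15, both in the paraspeckle list, rose by 0.58 ± 0.060 and 0.63 ± 0.067 in siCtrl and by 0.67 ± 0.060 and 0.74 ± 0.067 in siWDR77 (adjusted p = 1.21e-08, 1.58e-08, 9.84e-10 and 9.03e-10).

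The features whose pattern over the 24 libraries was most like that of each member were sought among the 14215 features that averaged 1 CPM or more in each study, by Pearson's r of log2 CPM centred within study. These r are descriptions: the libraries share the hormone treatment, which divides them into groups, and their depth and scaling. DRAIC was most like WEE1, a kinase that holds the cell cycle before mitosis (r = 0.98), followed by CRNDE (0.98) and EML5 (0.97). PART1 was most like NAT1, LRRFIP2 and RAB4A (0.98 each), PCA3 like MIRLET7BHG, the host RNA of let-7 microRNAs (0.95), DICER1 (0.95) and UNC5C (0.93), and PCGEM1 like ELP2, ELF2 and TC2N (0.88, 0.88 and 0.87). NEAT1 was most like MIR29B2CHG, WSB1 and ARID3A (0.91, 0.90 and 0.89), MALAT1 like FTX, TTC21B and RORA (0.86, 0.81 and 0.80), GAS5 like SNHG29, ZNF219 and PLEKHG4 (0.90, 0.89 and 0.88), and PCAT1 like TRAF7, UCK2 and DPH1 (0.76, 0.76 and 0.75). LINC00160 had a mean below 1 CPM and was not compared.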

How the data were processed

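Poly(A) RNA-seq of 24 LNCaP libraries was analysed, 12 per study, and the labels describe biological triplicates. The authors deposited 1 table of unnormalized read counts. The submitters' processing notes name bcl2fastq 2.20, STAR 2.7.9a, featureCounts of Subread 1.6.4 and the build GRCh38.p7. How strand and multiply aligned reads were treated, and which annotation was used, is not given in the sources used here. The columns of P3 with R1881 also carry the word siRNA and were matched by sample number. Coordinates are from GENCODE 29, which holds all 9 member IDs, 2 in the same version.

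Tests used edgeR 4.0.16 (TMM, filterByExpr by group, robust quasi-likelihood F test, no covariate) on the 12 libraries of each study, with Benjamini-Hochberg adjustment over all features tested. Log2 fold changes carry an SE from the F statistic. Alternatives, including DESeq2 1.42.0, are in the closing section. A group without a count was set to a floor of 3 counts over the group, which covers counting error only. No 2 libraries of a group agreed within sampling noise. No label says that a run of sample numbers marks a shared culture or day, and not every same-run pair correlated, so the fits are unpaired. The fit was tested on simulated counts. Named were all members, the genes overlapping them, up to 4 genes with the smallest adjusted p per list and the 3 most alike features per member. A gene that this rule names is not reported here. The members and lists were chosen with earlier results of these data known.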

Additional observations from a re-analysis of the deposited data

Results flagged for a closer look

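The response to R1881 differed between groups, by a test of the difference itself, for 3 members in study 1. In P3 against EV the log2 difference in response was -2.54 for PCA3 (adjusted p = 0.000373), 1.32 for DRAIC (4.06e-09) and -0.84 for NEAT1 (0.0216), from edgeR's quasi-likelihood test with 3 libraries in each group. PCA3 and NEAT1 stood higher in P3 than in EV without hormone, while DRAIC differed mainly with hormone.

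Between the EV and siCtrl control arms, set against each other after the data were seen, the difference in response was -2.32 for PCGEM1 (adjusted p = 0.000476) and 0.92 for MALAT1 (0.0239). The study and the transfected agent cannot be told apart there.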

How the results depend on the processing

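Of 1936 alternative values of single members, 1863 stayed on their side of the threshold, 45 lost a call and 28 gained one. No called value changed sign, and 73 uncalled values did, all among the 1863. The number of members called moved by over 1.5 times in few cases. For the change of response in P3 it was 5 in place of 3 with a replicate block, and for siWDR77 with R1881 it was 1 in place of 2 when only the 6 libraries compared were fitted. Leaving out 1 library gave 0 to 1 calls for siWDR77 without hormone, 0 to 2 with R1881 and 1 to 3 for EV against siCtrl in response. The cause was not tested.

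The replicate block (the run of sample numbers) rests on no label. Deviations of same-run libraries from their group means correlated at -0.026 to 0.118 in study 1, over 0.1 in 3 of 18 pairs, and at -0.062 to 0.126 in study 2, over 0.1 in 1 of 18. Pairs of different runs ranged from -0.095 to 0.038 in study 1 and from -0.149 to 0.122 in study 2. In P3 all 3 same-run pairs of vehicle and R1881 were positive (0.118, 0.091 and 0.114) and all different-run pairs negative, a hint from the data and not the design. Deviations from a group mean cancel out within the group, so the negative pairs are no separate evidence. Of all features 16 rather than 0 were called for the siWDR77 change of response, and 3719 rather than 2809 for P3 without hormone. The block added calls for MALAT1 in P3 without hormone (0.61, adjusted p = 0.0182), NEAT1 in P3 with R1881 (0.40, 0.0118), PCAT1 for R1881 in EV (0.26, 0.0384), and the P3 change of response of MALAT1 (-0.70, 0.0312) and GAS5 (0.21, 0.0137). Unscaled library totals moved the median of all features by -0.17 for R1881 in EV, -0.26 in siCtrl, -0.30 in siWDR77 and 0.16 for P3 with R1881. DRAIC in siWDR77 with R1881 was not called with only the 6 libraries compared (0.061). The low counts of PCGEM1 and LINC00160 and the 3 libraries per group limit the precision.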
